A study of Mus musculus with 4 samples.

Results

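Binding of the transcription factor WT1 was examined at 8 genes of the apical polarity complexes: Pard6b, Pard6g, Pard3, Pard3b, Prkci, Prkcz, Crb2 and Crb3. They are 8 of 21887 protein-coding genes in the reference table, and they were chosen by name with earlier results of these data known. For each gene, every peak was taken whose midpoint lay in the gene or within 50 kb of it. The data are chromatin immunoprecipitation followed by sequencing (ChIP-seq) of developing kidneys that were microdissected from wild-type mouse embryos at E18.5, late in gestation, on a mixed background of C57Bl6 crossed with B6DBA/F1. The samples were 2 precipitated with the WT1 antibody C-19 (WT1 replicates 1 and 2) and 2 precipitated with IgG as negative controls; the IgG samples were not analysed here. A kidney at this stage holds nephron progenitors, forming glomeruli, tubules, collecting ducts, stroma and vessels, so a peak does not say in which of these cells WT1 was bound.

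WT1 is a zinc-finger protein that is made in nephron progenitors and, at high levels, in podocytes, the epithelial cells of the glomerular filter. PAR3, PAR6 and atypical protein kinase C (aPKC) form a complex that marks the apical side of epithelial cells and positions their junctions, and the transmembrane Crumbs proteins anchor PAR6 and its partners at the apical membrane. Podocytes use the same proteins at the slit diaphragm, where PAR3 is known to bind nephrin, and loss of the kinase encoded by Prkci in mouse podocytes, or mutation of CRB2 in people, damages the filter.

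The files give a position and 1 value per peak or region, so the read depth behind a peak is unknown. Replicate 1 held 53132 peaks and replicate 2 held 57641. Their peak value is the authors' own and runs from 0 to 0.0499; it is read as a p-value or q-value and is called the peak value here, lower being more significant. A further table held 17234 regions that overlapped peaks of both replicates, each with a value that is read as an irreproducible discovery rate (IDR); 4411 of them had an IDR of 0.05 or lower and are called reproducible. The windows of the 8 genes held 81 peaks of replicate 1, 124 peaks of replicate 2, 39 regions found in both and 7 reproducible regions. Each of the 8 windows held at least 1 peak of each replicate, and 84.4% and 83.3% of all protein-coding genes did so in replicates 1 and 2. With 2 samples of 1 group and genes chosen for their peaks, all that follows is description without a test.

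Reproducible regions were present at 4 of the 8 genes: 2 at Pard6b, 2 at Pard3b, 2 at Prkcz and 1 at Crb2. Pard6g, Pard3, Prkci and Crb3 had none. Of all protein-coding genes, 26.1% had a reproducible region within the same distance; the rule used these peaks, so nothing is read from the difference. When each replicate was taken alone, with its 4411 peaks of lowest value, the count of genes was 5 with replicate 2 alone and 6 with replicate 1 alone, and the count of peaks was 9 and 11. Of all protein-coding genes, 26.2% had such a peak with replicate 2 alone and 24.7% with replicate 1 alone. Replicate 1 alone added 3 peaks at Pard3 and 1 at Prkci, and replicate 2 alone added 1 at Prkci and 1 at Prkcz. The added Prkci peaks were at different sites, both outside the gene, 38.9 kb away in replicate 1 and 41.3 kb away in replicate 2.

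**Figure D1:**
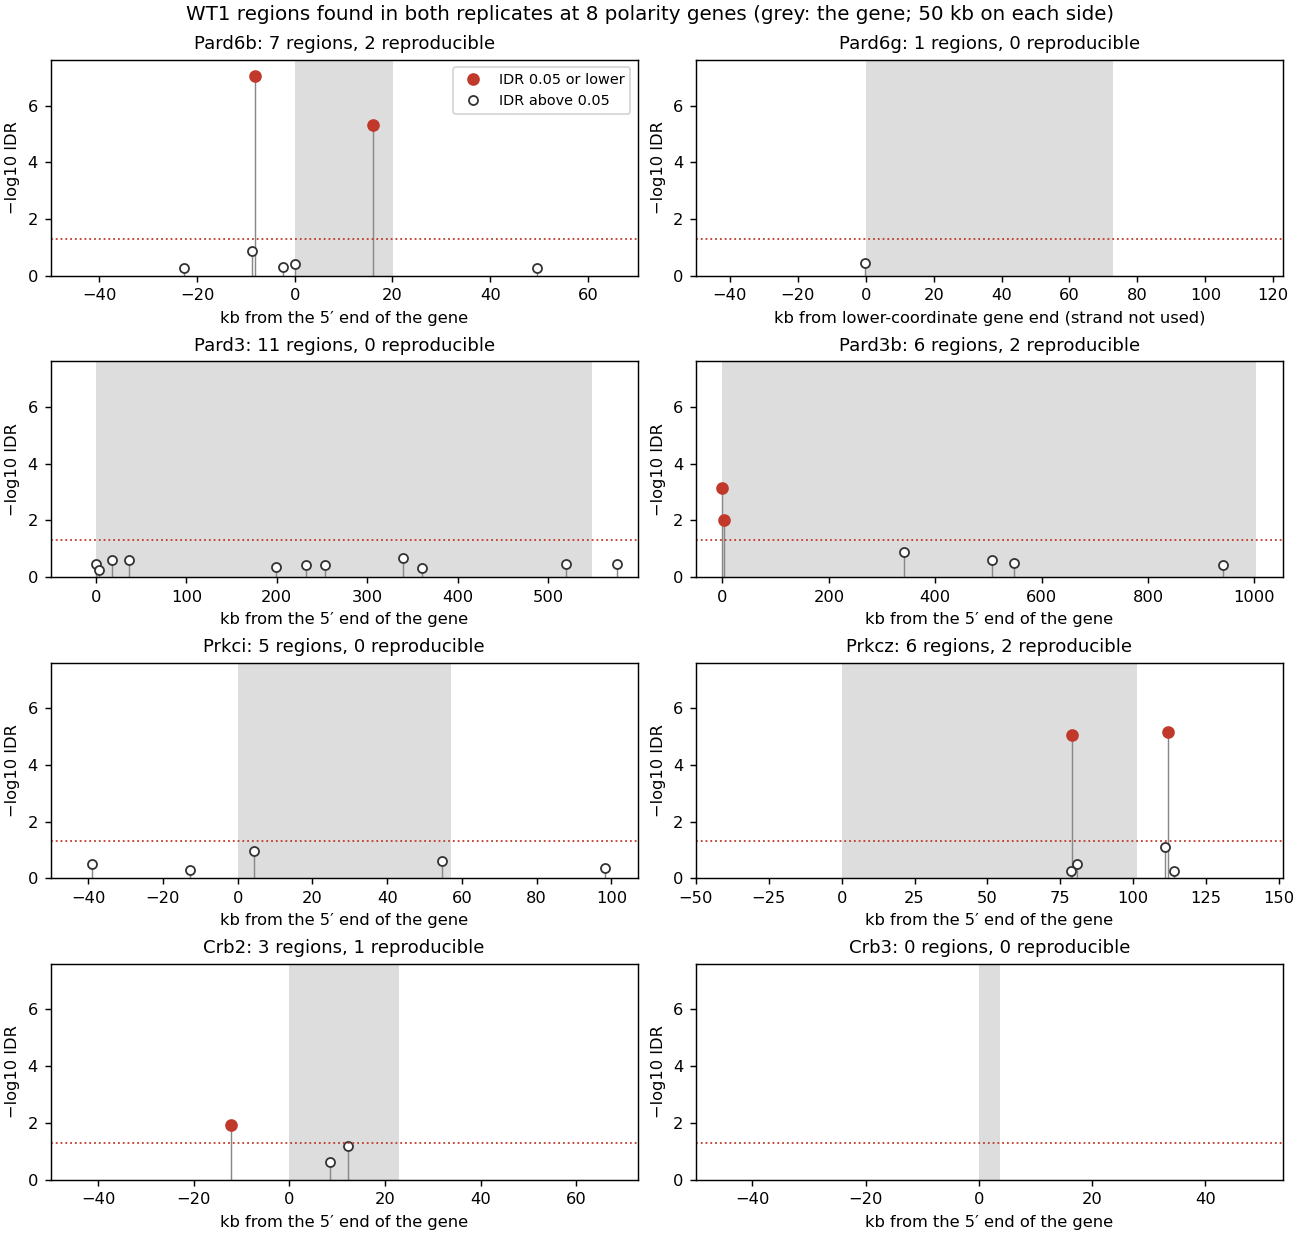
Position of each WT1 region found in both replicates (x axis, kb from the 5′ end of the gene, or from the lower-coordinate end for Pard6g) and its −log10 IDR (y axis) in the windows of the 8 genes; grey marks the gene, filled points have an IDR of 0.05 or lower and the dotted line is that threshold. The 2 reproducible regions of Pard3b sit at its 5′ end, those of Prkcz in or beyond its 3′ part, and the 11 regions of Pard3 all stay under the line.

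Among the PAR6 genes, whose products hold aPKC and bind the GTPase Cdc42, Pard6b carried the most significant region of the 8 genes. It lay at chr2:168072519-168073367 (mm10), 8.06 kb upstream of the start of Pard6b and outside any protein-coding gene, and its IDR of 9.1e-08 was number 6 of 17234. The peak value was listed at 0 in both replicates, as it was in 9 reproducible regions, this one included; the smallest value above 0 was 9.36e-100 in replicate 1 and 7.74e-100 in replicate 2. The peaks were 813 and 815 bp wide in replicates 1 and 2, whereas the median over all peaks was 134 and 150 bp. The region itself was 849 bp wide, and over all reproducible regions the median was 372 bp and the widest 1611 bp. The next nearest protein-coding gene, Ripor3, was 22.1 kb away. The start of Gm39990, a gene outside the protein-coding set used here, was nearer than the Pard6b start. It was 7.78 kb from the middle of the region. Which gene, if any, the region acts on was not tested.

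A second reproducible region lay inside Pard6b at chr2:168096709-168097272, 16 kb downstream of its start and 4.21 kb from its other end, with an IDR of 4.79e-06. Its peak value was 1.8e-14 in replicate 1 and 8.26e-36 in replicate 2. Exons were not part of the reference table, so whether this region is exonic or intronic is not given here. Beside these, the window held 5 weaker regions. One of them, at an IDR of 0.131, was separated from the strongest region by 109 bp, and 1 other covered the start of the gene at an IDR of 0.377. That last region ran from 125 bases upstream of the annotated start to 7 bases past it, and both replicates gave exactly the same edges (peak values 0.0178 in replicate 1 and 0.00186 in replicate 2). The start of Gm39990 was also near, 0.219 kb from the middle of that region, and the Pard6b start was 0.059 kb from it. Pard6b also had the highest peak density of the 8 genes, though in replicate 1 Prkcz and Crb2 came close, at 4.97 and 4.88 per 100 kb. The 120 kb window of Pard6b held 7 peaks of replicate 1 and 20 of replicate 2, or 5.82 and 16.6 per 100 kb. Of protein-coding genes, 94.1% had a lower density in replicate 1 and 99.5% in replicate 2. All 7 of the Pard6b replicate 1 peaks were found again in replicate 2, while 13 of its 20 replicate 2 peaks were not found in replicate 1.

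The bases before the Pard6b start are shown because they carry this weak but exactly matching peak (RefSeq sequence, GRCm38.p6, chr2:168080754-168081003, plus strand, which is the gene's strand; capitals mark bases covered by peaks of both replicates):
Pard6b promoter: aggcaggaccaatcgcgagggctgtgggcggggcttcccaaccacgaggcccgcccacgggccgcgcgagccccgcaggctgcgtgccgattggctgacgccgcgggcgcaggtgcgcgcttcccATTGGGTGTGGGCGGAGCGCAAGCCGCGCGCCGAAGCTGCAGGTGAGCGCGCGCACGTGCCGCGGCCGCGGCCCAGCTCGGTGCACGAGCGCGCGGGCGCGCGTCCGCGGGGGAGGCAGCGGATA
Its G and C content was 77.6%, and the median of all 32817 promoter windows in the reference was 52.7%.

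When all protein-coding genes with a region were ranked by the lowest IDR in their window, Pard6b shared rank 9 of 12471 with Ripor3, through the same region. Just above it were Ppp1r13b, Rd3l, Tdrd9 and Atp5mpl, tied at rank 5 through 1 region with an IDR of 8.26e-08. Just below it came Mical3 at 9.72e-08 and then Bag3 and Inpp5f, through 1 region at 1.04e-07. This likeness is in 1 value from 2 replicates.

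Pard6g, the other PAR6 gene examined, had 1 region, on chromosome 18 and 0.147 kb outside its lower-coordinate end, with an IDR of 0.351. The peak values there were 0.0314 in replicate 1 and 0.00134 in replicate 2. Its window held 3 and 6 peaks of replicates 1 and 2. The densities, 1.74 and 3.47 per 100 kb, lay between the quartiles of all genes.

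**Figure D2:**
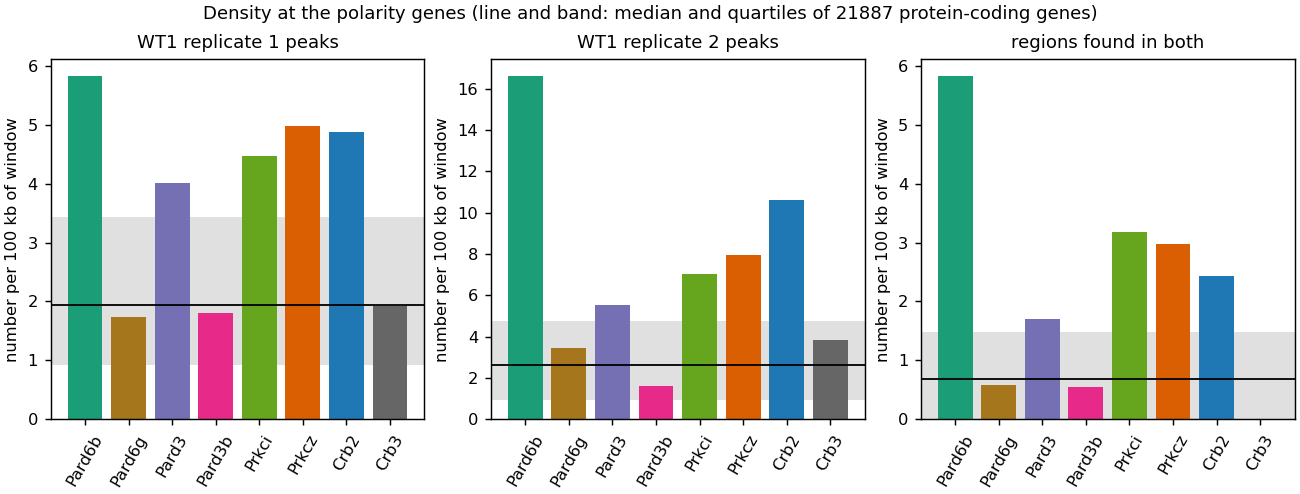
Number of WT1 peaks or regions per 100 kb of window (y axis) at each of the 8 genes (bars), in replicate 1, in replicate 2 and in the table of regions found in both; the line is the median and the band the quartiles over 21887 protein-coding genes. Pard6b is the highest bar in each panel, with 5.82 regions per 100 kb, and Pard3b, at 0.544, lies under the median of 0.683.

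The PAR3 genes encode scaffolds with PDZ domains. PAR3 binds PAR6 and aPKC, and Pard3b encodes its paralogue. Both genes are very long, 1000 kb for Pard3b and 549 kb for Pard3, and they gave opposite pictures.

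Pard3b had its reproducible regions at the 5′ end and nowhere else in the gene. The first, chr1:61638561-61638828, covered the annotated start used for the promoter sequence, from 263 bases before it to 4 bases after, with an IDR of 6.98e-04. The replicate 1 peak ended 30 bases before that start, and only the replicate 2 peak reached it. The peak value was 1.02e-13 in replicate 1 and 6.14e-11 in replicate 2. The second, chr1:61641906-61642236, lay 3.25 kb downstream of that start with an IDR of 0.00937, at 7.8e-15 in replicate 1 and 6.17e-07 in replicate 2. In both regions the value was lower in replicate 1, while over all reproducible regions 90.3% had the lower value in replicate 2. The other 4 regions of Pard3b lay between 341 and 942 kb into the gene, with IDRs from 0.129 to 0.36. Over its window the density was 0.544 regions per 100 kb, and 46.8% of protein-coding genes had a lower one. No other protein-coding gene touched its window.

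The Pard3b start is shown because it is the only start in the promoter table, among these genes, under a reproducible region (RefSeq sequence, GRCm38.p6, plus strand, the gene's strand). The first line gives chr1:61638574-61638666, the part of the promoter window before the outermost end of the gene, with capitals for bases covered by peaks of both replicates. The second gives chr1:61638783-61638806, around the downstream edge of the replicate 1 peak, with capitals for the recognition sequence of MseI:
Pard3b promoter: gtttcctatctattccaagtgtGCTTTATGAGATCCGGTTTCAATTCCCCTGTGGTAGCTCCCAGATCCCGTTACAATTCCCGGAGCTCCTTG
Pard3b peak edge: gcggcccctTTAAgagccgggccc
The replicate 1 peak ended at 61638794, the position where MseI, an enzyme named in the labels' protocols for cutting the recovered DNA, leaves a filled-in end. The upstream edge of the replicate 2 peak, at 61638596, lay at no site of MseI, AluI or HaeIII, and neither did its other edge at 61638828.

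Such edges were also common in the promoter windows of all genes, the only places where edges were compared with cut sites. Of the peak edges that fell in promoter windows, 22.7% of 1851 in replicate 1 and 16.5% of 3136 in replicate 2 lay exactly at an AluI cut, and 6.16% and 5.45% at an MseI cut. For HaeIII these shares were 0.54% and 1.08%, no more than 1.48% at either edge, beside up to 1.41% at positions a few bases off the cut. Among the 7 reproducible regions at the polarity genes, 2 had the same start base in both replicates and 1 had the same end base. Among the 32 other regions 14 had the same start and 14 the same end. Over all reproducible regions with 1 peak in each replicate, 33.5% had the same start and 34.2% the same end. Above an IDR of 0.05 these shares were 42.2% and 41.6%, so matching edges were not particular to these genes. The part of the cut sites in these matches was not tested.

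Pard3 had 11 regions, more than any other of the 8 genes, and none was reproducible. Its window was 649 kb long, so the density was 1.7 regions per 100 kb, lower than at Pard6b, Prkci, Prkcz and Crb2. Of protein-coding genes, 78.5% had a lower density. The IDRs ran from 0.21 to 0.541. Of the 101 protein-coding genes with at least 11 regions, 2 had no reproducible one (1.98%). Of these regions, 10 lay inside the gene and were spread over its length, and the last lay 26.9 kb past its end. The region with the lowest IDR, chr8:127402676-127402859, had peak values of 0.0215 in replicate 1 and 0.00479 in replicate 2. The most significant peak of replicate 1, at 1.02e-06 (chr8:127582767-127583047), had a peak value of 0.00254 in replicate 2, and the most significant of replicate 2, at 1.15e-04 (chr8:127080576-127080796), had 0.0261 in replicate 1. The lowest peak value among the shared sites of Pard3 was thus at a different site in each replicate. One region, chr8:127063523-127063803 with an IDR of 0.351, ended just before the promoter window of Pard3.

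**Figure D3:**
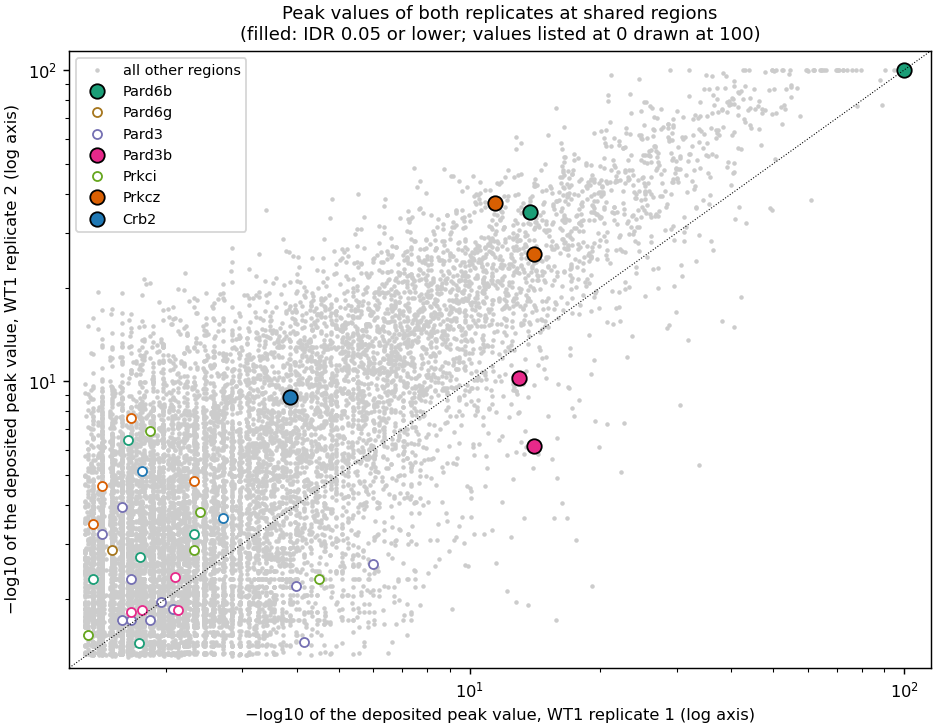
The −log10 of the deposited peak value in WT1 replicate 1 (x axis) and replicate 2 (y axis), both on log axes, for the regions found in both replicates; coloured points are regions of the 8 genes, filled where the IDR is 0.05 or lower, grey points are all other regions, and values listed at 0 are drawn at 100. The strongest Pard6b region is at the upper right corner, and the 2 filled Pard3b points lie below the diagonal.

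The aPKC genes Prkcz and Prkci encode the kinases of the complex, which phosphorylate PAR3 and basolateral proteins. Prkcz, on the minus strand of chromosome 4, had 2 reproducible regions, both far from its starts. One lay inside the gene at chr4:155282226-155282642, 62.3 kb downstream of the nearest of 3 annotated starts, with an IDR of 8.78e-06. The peak value was 9.01e-15 in replicate 1 and 2.32e-26 in replicate 2, and both peaks began at the same base. The other lay at chr4:155249502-155250000, 10.4 kb past the 3′ end of Prkcz, with an IDR of 6.7e-06, and with peak values of 3.64e-12 in replicate 1 and 4.24e-38 in replicate 2. This second region lay inside the neighbouring gene Faap20, which encodes a protein of the Fanconi anaemia complex, and covered a start of that gene, from 464 bases before it to 34 bases after. The replicate 1 peak ended 45 bases before that start, and only the replicate 2 peak reached it. If each region is given only to the nearest protein-coding gene, Prkcz keeps 1 reproducible region.

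The sequence before that Faap20 start is shown because the region counted for Prkcz sits on it (RefSeq sequence, GRCm38.p6, chr4:155249716-155249965, plus strand, the strand of Faap20; capitals mark bases covered by peaks of both replicates):
Faap20 promoter: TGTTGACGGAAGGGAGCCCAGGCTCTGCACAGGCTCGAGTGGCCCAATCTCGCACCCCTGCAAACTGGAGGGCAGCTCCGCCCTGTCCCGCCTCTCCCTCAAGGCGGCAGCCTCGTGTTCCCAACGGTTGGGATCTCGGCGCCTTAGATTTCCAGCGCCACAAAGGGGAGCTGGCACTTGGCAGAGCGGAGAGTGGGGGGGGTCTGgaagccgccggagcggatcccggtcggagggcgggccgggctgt

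Each Prkcz region had a weaker companion close by. A region with an IDR of 0.0781 began 38 bp after the one at Faap20, and a region with an IDR of 0.536 began 47 bp after the one inside Prkcz. With the strongest Pard6b region, 3 of the 7 reproducible regions (42.9%) had another region within 200 bp, and 22.1% of all 4411 did. At the 5′ end of Prkcz, 1.46 kb upstream of the outermost start, replicate 2 had a peak at chr4:155362814-155362956 with a value of 9.8e-05, and replicate 1 had none that overlapped it.

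Prkci, whose kinase is the one required in podocytes, had 5 regions and no reproducible one. The lowest IDR was 0.108, at chr3:30999996-31000261, 4.36 kb downstream of the Prkci start, with peak values of 0.00395 in replicate 1 and 1.58e-04 in replicate 2. A region at chr3:31050422-31050600 near the other end of Prkci had an IDR of 0.236. The other 3 lay outside the gene, 1 of them inside Phc3 and 1 at 1.03 kb from Skil. The lowest peak value of replicate 1, 3.18e-05, was at the Phc3 site, and the lowest of replicate 2, 1.22e-07, was at the site near Skil (IDR 0.322 and 0.444), so neither replicate had its most significant peak in Prkci itself. Regions were dense here, at 3.18 per 100 kb, and 93.7% of protein-coding genes had fewer for their length.

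The Crumbs genes encode the transmembrane members. Crb2, required at the slit diaphragm, had 1 reproducible region, chr2:37763792-37764104, 12.3 kb upstream of its start and 35 kb from the next protein-coding gene, Dennd1a. Its IDR was 0.012, with peak values of 1.34e-04 in replicate 1 and 1.3e-09 in replicate 2. Both replicates gave the same 313 bp interval, as they did in 12.4% of all reproducible regions with 1 peak in each replicate. A region inside Crb2 at chr2:37788348-37788536 fell just short of the threshold, with an IDR of 0.0663 and peak values of 0.00196 and 2.34e-04 in replicates 1 and 2. The last, at chr2:37784757-37784838, had an IDR of 0.244. Upstream of the Crb2 start, replicate 2 had a peak at a value of 0.0158 (chr2:37775895-37776145) that ended before the start, and replicate 1 had none in the promoter window. Of the 39 regions at the 8 genes, those just inside the threshold of 0.05 were this Crb2 region at 0.012 and the second Pard3b region at 0.00937, and those just outside were the inner Crb2 region at 0.0663 and the Prkcz companion at 0.0781. At an IDR of 0.01 Crb2 had no region left, and 3 of the 8 genes and 6 regions remained. At that threshold 19.6% of all protein-coding genes had a region, and nothing is read from the difference.

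Crb3, the Crumbs gene with a short extracellular part that is made in many epithelia, was the only 1 of the 8 without a region found in both replicates. Over all protein-coding genes, 57.0% had such a region. Its gene is the shortest of the 8, at 3.72 kb. The window held 2 peaks of replicate 1 (values 0.00938 and 0.0314, 22.8 and 37.5 kb outside the gene) and 4 of replicate 2 (values 0.00082 to 0.0143). The nearest of these to a start of Crb3 was a replicate 2 peak 1.41 kb upstream, at a value of 0.00374.

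**Figure D4:**
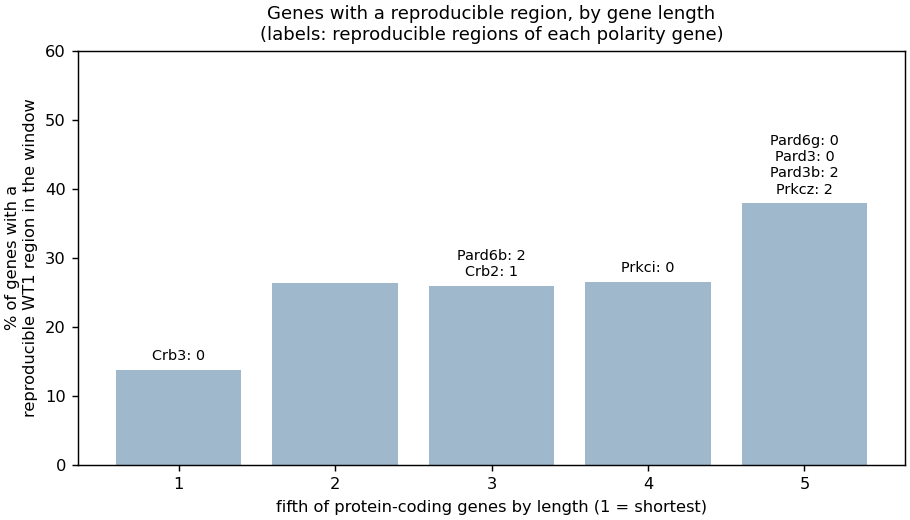
Share of protein-coding genes with a reproducible WT1 region in the gene or within 50 kb (y axis, percent) in 5 classes of gene length (x axis, shortest first); labels give the number of reproducible regions at each polarity gene in its class. The share is 13.8% in the shortest class, which holds Crb3, and 37.9% in the longest, which holds Pard6g, Pard3, Pard3b and Prkcz.

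Gene length bears on these counts, since a long gene has a longer window. Pard6b and Crb2 were in the third class of length, where 25.9% of genes had a reproducible region, and Prkci was in the fourth, at 26.5%. Pard3b, Prkcz, Pard3 and Pard6g were in the longest class, at 37.9%, and 2 of these 4 had one. Inside the gene itself, 3 of the 8 genes (Pard6b, Pard3b and Prkcz) held a reproducible region, beside 7.95% of all protein-coding genes. With 2 or more reproducible regions there were 3 of the 8, beside 8.37% of all. The shares of 7.95% and 8.37% were not matched for gene length. The genes were also chosen with these peaks known, so nothing is read from the differences.

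The replicates shared part of these peaks. Of the 81 replicate 1 peaks in the windows, 39 overlapped a peak of replicate 2 (48.1%), and over the whole list it was 34.1%. Of the 124 replicate 2 peaks, 39 overlapped one of replicate 1 (31.5%), and 30.8% did over the whole list. Peaks of 1 gene lie close together and the genes were chosen with these peaks known, so nothing is read from these differences. The most significant peak seen in 1 replicate only was 6.66 kb beyond the 3′ end of Pard3b, at chr1:62648838-62649047, with a value of 5.33e-10 in replicate 2. Only 35 of the 39911 unshared peaks of replicate 2 had a value as low. In replicate 1 the lowest such value in the windows was 0.00261, inside Prkcz.

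Promoter sequences were on hand for 7 of the 8 genes, in 11 windows of 300 bases, from 250 before a start to 50 after. Regions found in both replicates touched 2 of the 11, those of Pard6b and Pard3b, and 1 of these was reproducible; over all 32817 windows 4.47% and 1.9% did. WT1 is known to bind GC-rich motifs close to GCGTGGG. The letters GCGTGGGNG, searched on both strands, were found in the Pard3 and Prkci windows and in 1.9% of all windows. The shorter GCGTGGG, which lies inside the first motif, was found in the same 2 windows and in 5.04% of all. GCGGGGGCG was in none of the 11 and in 2.91% of all, and TCCTCCTCC was in 1, that of Pard3, and in 3.03% of all. The motifs are shown with their surroundings because they sit at starts that no peak touched (RefSeq sequence, GRCm38.p6, plus strand, which is the strand of both genes; chr8:127063806-127063833 and chr3:30995521-30995541; capitals mark GCGTGGGNG):
Pard3 motif: cctctggggGCGTGGGTGgggcgtcccg
Prkci motif: gaGCGTGGGTGctctgtaggt
The Pard3 match lay 241 to 233 bases before the start and the Prkci match 248 to 240 bases before it. Peaks were not absent near the Pard3 match. It began at 127063815, and the weak region found in both replicates (IDR 0.351) ended just before it, at 127063803. These matches are descriptions of letters and not of binding.

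Other polarity genes were counted in the same way, from 5 lists of 41 genes in all, of which 18 (43.9%) had a reproducible region within 50 kb. Among Crumbs and PAR partners only 1 of 8 did: Patj, a scaffold of the Crumbs complex (IDR 0.035, 81.3 kb from the nearer end, inside the gene). Cdc42, the GTPase bound by PAR6, had its lowest IDR at 0.109, and Mpp5, which encodes PALS1, the link of Crumbs to PATJ, at 0.542. Pard6a, the remaining PAR6 gene, had no region.

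The Scribble complex, which defines the basolateral side, had 4 of 8 genes with a reproducible region. Llgl2, a target of aPKC, had 3, but the strongest (IDR 6.14e-07) was 49.5 kb outside the gene. Dlg4 had 4, the strongest inside it (IDR 5.86e-05), in a stretch with 8 protein-coding genes within 50 kb. Dlg5 had 3, the strongest inside it 40 kb from an end (IDR 0.0017), and Llgl1 had 1, 0.632 kb outside (IDR 0.00596). Scrib itself had 2 regions, the lower at an IDR of 0.473.

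Of 7 genes of the PAR-1 and PAR-4 kinases, 4 had a reproducible region. Mark2 had 1 inside the gene (IDR 1.91e-05), while those of lowest IDR at Stk11, which encodes the PAR-4 kinase LKB1, at Cab39 and at Mark1 were 31, 34.9 and 45 kb outside. Stk11 had 7 reproducible regions in its window, with 7 protein-coding genes within 50 kb of the strongest. Of 7 regulators of PAR assembly, 3 had one, and the region of lowest IDR lay inside the gene in each: Wwc1, which encodes the aPKC-binding protein KIBRA (IDR 1.59e-05, 0.985 kb from an end), Tiam1, a Rac activator that binds PAR3 (IDR 2.88e-05), and Tiam2 (IDR 5.71e-04). The next of this list, Aurka, had its lowest IDR at 0.0806. Of 11 tight junction genes, 6 had one, among them Tjp1 (IDR 2.72e-06, inside), Cgn (IDR 3.07e-05, 49.9 kb outside) and Magi1 (IDR 0.00133, inside). Beside these, 26.1% is the share over all protein-coding genes; several of the listed genes are long or lie among many others, and matching for this was not done.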

How the data were processed

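WT1 and IgG ChIP-seq samples were grouped by their titles. The deposited p-value-like columns were used as they stand: per the labels, each WT1 sample has 1 peak list, cut by the authors at 0.05, and whether it holds p or q is unstated, and a table of both replicates holds 1 value per region, read as an IDR from its name and range. Per the submitters' processing notes the build is mm10; for the aligner, the peak caller and any use of IgG reads, the sources used here give nothing. Per the labels' protocols, library DNA was digested by MseI together with AluI or HaeIII and amplified for 18 rounds, so a cut site can set the edge of a peak.

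Starts were made 1-based; AluI and MseI cuts fell exactly at peak edges only with that reading. Peaks were placed by midpoint in a gene ± 50 kb, with 21887 protein-coding genes of RefSeq GRCm38.p6 (the assembly of mm10; no exons given) and promoter windows of the same build, in Python 3.11.15 with pandas 2.3.3 and scipy 1.17.1. Peaks were shared at 1 bp of overlap. The counting functions were tested on simulated data. The genes, lists, motifs and settings were chosen with earlier results of these data known; the motifs and cut sites were chosen after the promoter sequences were seen. All members, each reproducible region's nearest gene, up to 4 genes per list and the 3 genes on either side of Pard6b in rank are named. A few further genes (Atp5mpl, Gm39990, Cdc42, Mpp5, Pard6a, Scrib and Aurka among them) were added after their values were seen. A result for 1 listed gene is not reported here. No batch is labelled. The labels call the experiments independent but name no animals, so replicate spread may be technical.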

Additional observations from a re-analysis of the deposited data

How the results depend on the processing

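The 8 genes had 7 reproducible regions. With every region of the overlap table, 39 regions at 7 of the 8 genes were counted, and 12471 protein-coding genes (57.0%) had one against 5711 in the main count. With gene bodies only, 4 regions remained, with 1739 protein-coding genes. With a 10 kb window 2972 protein-coding genes had one, and with only the nearest gene counted 2680. When either replicate was left out, the regions ranged from 9 to 11, the polarity genes from 5 to 6 and all protein-coding genes from 5407 to 5730. At peak values of 0.01 or lower in both lists, 64% of replicate 1 peaks in the windows were shared, from 25 peaks, against 48.1% of 81. For replicate 2 the share at that cut was 27.1% of 59 peaks, against 31.5% of 124. The shares over the whole lists were not computed at that cut, so nothing is read from these values. The other alternatives changed the counts by less than 1.5 times and kept the shares inside the exact Clopper-Pearson 95% intervals of the main values (36.9 to 59.5% and 23.4 to 40.4%), which cover counting error over peaks only. No paired analysis was possible because the IgG samples, which share replicate numbers with the WT1 samples, were not analysed here. Read depth is unknown, so a missing region at Crb3 or a weak one at Pard3 says only that it was not called in these lists.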
